A study of Mus musculus with 8 samples.

Results

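The B7 family genes were examined in dendritic cells that express the chemokine gene Ccl17 in lymph nodes (LN) and in splenic dendritic cells that do not. The 7 genes are Cd80, Cd86, Icosl, Cd274, Pdcd1lg2, Cd276 and Vtcn1, taken with all 11 of their probes, out of 19057 named genes on the array. They were chosen by family membership, and the rule used no measured value, though earlier results of these data were known when they were chosen. Both groups came from CCL17E/+ mice on a C57BL/6 background, aged 2 to 5 months, in which EGFP reports Ccl17. All mice had received 100 µg of LPS, the bacterial endotoxin, 15 h earlier. The LN group (MLN and PLN) was sorted as EGFP-positive cells with CD11c and CD11b and without NK1.1 and CD8alpha, and the spleen group as EGFP-negative cells with the same markers, with 4 arrays each. Organ and Ccl17 expression changed together between the groups and cannot be told apart. All samples are from mice given LPS, so no value here is a response to LPS. The series text says that both organs came from the same mice. How many mice went into each array, and whether they were pooled, is not given in the sources used here. The p-values therefore cover only the spread from array to array, which may be technical.

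B7 proteins sit on antigen-presenting cells and bind receptors of T cells. CD80 and CD86 bind CD28, which costimulates, and CTLA4, which restrains. ICOSL binds ICOS and helps follicular and effector T cells, while PD-L1 (gene Cd274) and PD-L2 (gene Pdcd1lg2) bind the inhibitory receptor PD-1. CD276 and VTCN1 are further members that have mostly been described as inhibitors of T cells. Dendritic cells raise CD80 and CD86 when they mature, and interferons raise PD-L1.

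Of the 7 genes, 6 had a detectable probe and were tested. Pdcd1lg2 was higher in LN cells, while Cd80 and Cd276 were lower. Cd86, Icosl and Cd274 were not called by the fit without a block, although Cd86 was called lower with replicate number as a block (adjusted p 0.0249 in limma). Vtcn1 was not detected on any array. A gene counted as called where its p, adjusted by Benjamini-Hochberg, was under 0.05 in limma's two-sided test, fitted on all 8252 genes that were detected at p under 0.01 on at least 4 arrays. Among all genes tested 15.6% were called, 7.99% higher and 7.59% lower in LN, against 1 higher and 2 lower among the 6 B7 genes. The 6 genes had a median log2 fold (LN over spleen) of -1.06, beside 0.03 over all genes tested. Fewer cells of a type and less RNA per cell cannot be told apart in these bulk samples.

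Mean intensity per array ran from 334 to 521 in LN and from 239 to 510 in spleen, and 30.4% to 33.1% of probes were detected. Spleen replicate 4, the dimmest array, had a mean correlation of 0.887 with its own group, against 0.941 to 0.951 for the other spleen arrays and 0.969 to 0.975 for LN arrays. B7 genes and named pathway genes whose call changes or whose log2 fold moves by over 1.5 times without it are also given without it. In all 659 genes were higher and 626 lower in LN. Without spleen replicate 4 these were 1003 (12.2%) and 985 (11.9%), blocking on replicate number they were 925 (11.2%) and 820 (9.94%), and with each array scaled by its median 624 and 315. Over all genes the median log2 fold was 0.23 under that scaling, beside 0.03. Replicates 1 and 2 of both groups lay on the first BeadChip, the slide that carries several arrays, and replicates 3 and 4 on the second. As the check of the sort, Ccl17 averaged 12.51 ± 0.33 in LN and 6.24 ± 0.50 in spleen (log2 intensity, SD, n = 4 each). Of the genes behind the gate, Itgax (CD11c) was detected on 3 LN and 3 spleen arrays. Itgam (CD11b) was detected on 1 LN and 0 spleen arrays, so the gate on CD11b could not be checked on these arrays. Values below are background-corrected, quantile-normalized log2 intensities, which may be compared between arrays for 1 probe but not between probes.

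**Figure D1:**
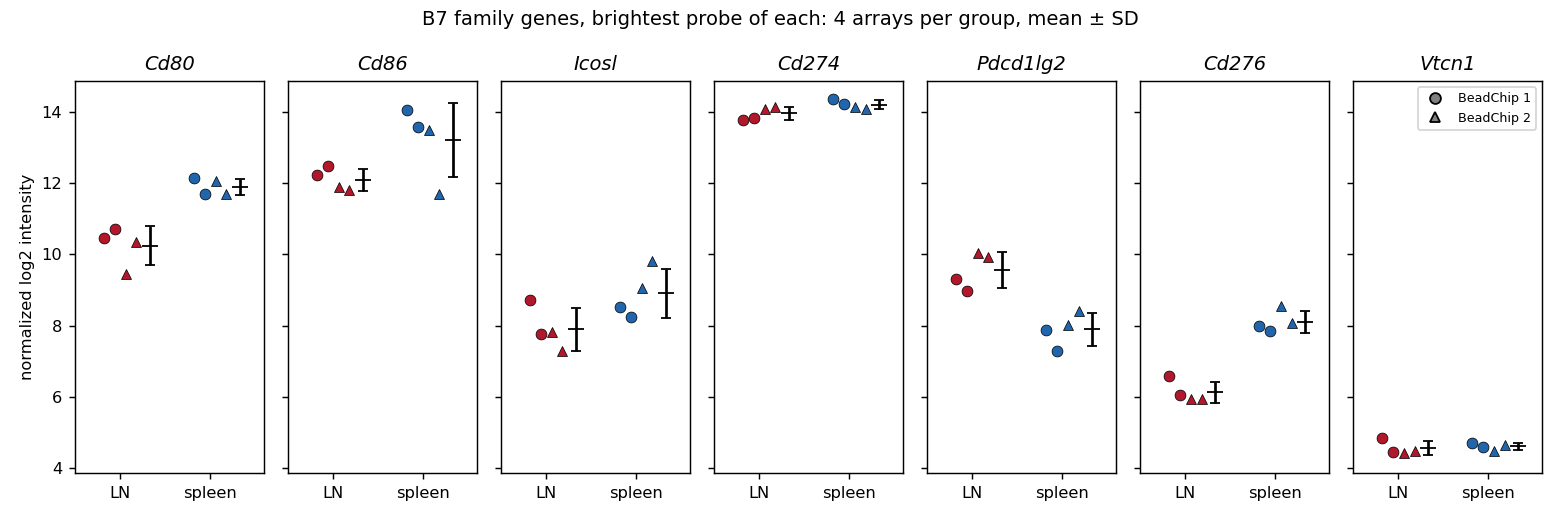
Normalized log2 intensity (y axis) of the brightest probe of each B7 gene on the 4 LN and 4 spleen arrays, with circles for the first BeadChip, triangles for the second and bars for mean ± SD. LN points lay below all spleen points for Cd80 and Cd276 and above them for Pdcd1lg2, 1 spleen array lay apart for Cd86, and Vtcn1 stayed at background.

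Cd80 was lower in LN cells. Its brighter probe read 10.45, 10.72, 9.45 and 10.35 in LN replicates 1 to 4, and 12.13, 11.69, 12.05 and 11.68 in spleen replicates 1 to 4. The groups did not overlap, as was true of 22.2% of all genes tested. The log2 fold was -1.64 ± 0.27 (SE, n = 4 each, adjusted p 0.00201 in limma), a level 3.12-fold lower in LN, with a 95% interval of -2.23 to -1.05. It was -1.32 within the first BeadChip and -1.96 within the second, and -1.71 without spleen replicate 4.

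The dimmer Cd80 probe gave the same picture. It read 5.71, 6.03, 5.56 and 6.10 in LN and 7.36, 7.30, 6.54 and 7.52 in spleen, again without overlap. In a limma fit over all 14726 passing probes, of which 12.4% were called, its log2 fold was -1.33 ± 0.27 (adjusted p 0.00811), beside -1.64 ± 0.27 (adjusted p 0.00238) for the brighter probe. Within the second BeadChip alone the dimmer probe was not called (-1.20, adjusted p 0.266). Of the 10 passing B7 probes 5 were called in that fit, 4 lower and 1 higher in LN.

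Cd86 was the gene whose call turned on 1 array. Its brightest probe read 12.22, 12.48, 11.89 and 11.80 in LN, and 14.05, 13.58, 13.49 and 11.70 in spleen. The first 3 spleen arrays lay above all LN arrays, while spleen replicate 4 lay below all of them. With all 8 arrays the log2 fold was -1.11 ± 0.43 (SE, n = 4 each) with a 95% interval of -2.07 to -0.15, which was not called (adjusted p 0.121 in limma). Without spleen replicate 4 it was -1.61 (adjusted p 0.000144 in limma), and with replicate number as a block -1.11 (adjusted p 0.0249 in limma). It was -1.47 within the first BeadChip and -0.75 within the second.

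The 3 Cd86 probes did not move alike on that array. The second probe followed the first, with 11.69, 11.75, 11.28 and 11.04 in LN and 13.46, 13.13, 12.79 and 11.15 in spleen. The dimmest probe read 8.998, 8.37, 7.77 and 8.47 in LN and 10.70, 10.94, 10.48 and 10.25 in spleen, so its groups did not overlap and spleen replicate 4 stayed with the other spleen arrays. The fit over all probes gave the dimmest -2.20 ± 0.27 (SE, log2 fold, adjusted p 0.000489), the brightest -1.11 ± 0.43 (adjusted p 0.132) and the second -1.19 ± 0.43 (adjusted p 0.108). Without spleen replicate 4 they were -2.31, -1.61 and -1.69, all called. The gap between the brightest and the dimmest probe was 3.22 to 4.12 in LN arrays, 2.64 to 3.35 in spleen replicates 1 to 3 and 1.45 in spleen replicate 4. All 3 probes are annotated to the same RefSeq transcript, and which part of it each probe reads was not used here.

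**Figure D2:**
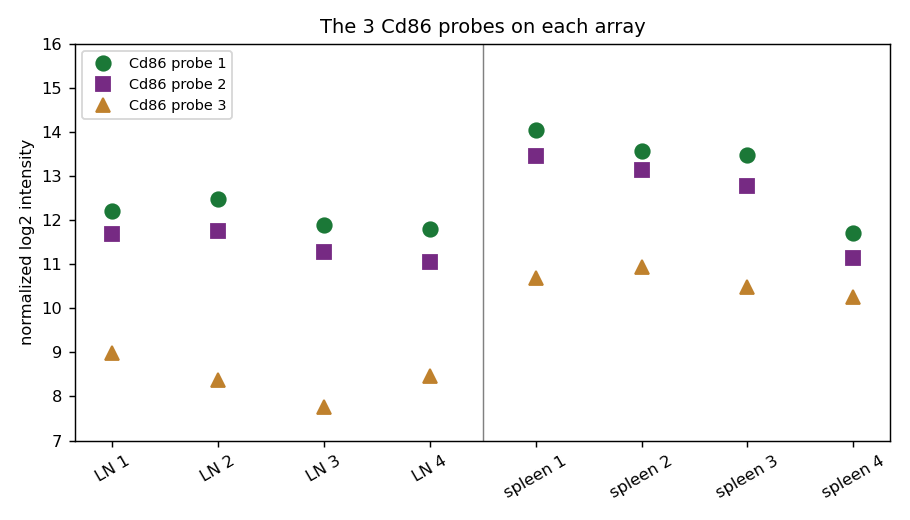
Normalized log2 intensity (y axis) of the 3 Cd86 probes on each array (x axis), LN arrays on the left of the line. Probes 1 and 2 on spleen replicate 4 (11.70 and 11.15) lay at the level of the LN arrays, while probe 3 (10.25) stayed above its own value on every LN array.

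Icosl, the ligand of ICOS, was not called. Its brighter probe read 8.73, 7.76, 7.82 and 7.29 in LN, and 8.52, 8.24, 9.05 and 9.82 in spleen. The groups overlapped on the first BeadChip, where LN replicate 1 lay above both spleen arrays. On the second BeadChip both LN arrays lay below both spleen arrays. The log2 fold was -1.01 ± 0.39 (SE, n = 4 each, adjusted p 0.118 in limma) with a 95% interval of -1.87 to -0.14. It was -0.14 within the first BeadChip and -1.88 (adjusted p 0.0592 in limma) within the second, and -0.70 without spleen replicate 4. The dimmer probe had 5.92, 7.66, 7.58 and 5.84 in LN and 7.32, 6.82, 8.43 and 8.57 in spleen, with a log2 fold of -1.03 ± 0.53 (adjusted p 0.278 in the probe fit).

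Cd274 and Pdcd1lg2 encode the ligands of PD-1 and neighbour each other on chromosome 19, with no protein-coding gene between them in the RefSeq table. Their promoters are shown because the genes are neighbours, share a receptor and differed in call, and those of Cd80 and Cd276 because these genes were called lower. The sequences are the 250 bases before each gene's start (RefSeq, GRCm38.p6), read 5′ to 3′ on the gene's strand. Capitals mark matches, on either strand, to the letters searched: TTC and GAA with any 3 bases between (the GAS element of interferon gamma), TTC and GAA with any 4 between (the form bound by STAT6), GAAA and GAAA with any 2 between (a core of interferon response elements) and GGG and CC with any 5 between (NF-kappaB).
Pdcd1lg2, chr19:29410669-29410918, plus strand: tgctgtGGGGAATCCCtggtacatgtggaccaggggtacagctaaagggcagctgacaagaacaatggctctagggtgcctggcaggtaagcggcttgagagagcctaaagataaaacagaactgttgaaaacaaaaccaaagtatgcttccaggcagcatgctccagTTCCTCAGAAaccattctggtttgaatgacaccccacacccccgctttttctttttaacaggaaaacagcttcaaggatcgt
Cd274, chr19:29367188-29367437, plus strand: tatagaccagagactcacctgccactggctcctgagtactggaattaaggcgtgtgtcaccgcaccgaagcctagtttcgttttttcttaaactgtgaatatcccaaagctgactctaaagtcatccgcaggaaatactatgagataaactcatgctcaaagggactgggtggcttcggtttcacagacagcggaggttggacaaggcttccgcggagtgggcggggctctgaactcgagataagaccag
Cd80, chr16:38458683-38458932, plus strand: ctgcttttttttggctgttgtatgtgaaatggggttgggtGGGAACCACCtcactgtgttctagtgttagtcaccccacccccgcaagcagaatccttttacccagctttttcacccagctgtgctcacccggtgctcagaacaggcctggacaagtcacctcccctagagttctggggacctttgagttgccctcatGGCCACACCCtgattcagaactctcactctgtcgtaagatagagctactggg
Cd276, chr9:58555034-58555283, minus strand: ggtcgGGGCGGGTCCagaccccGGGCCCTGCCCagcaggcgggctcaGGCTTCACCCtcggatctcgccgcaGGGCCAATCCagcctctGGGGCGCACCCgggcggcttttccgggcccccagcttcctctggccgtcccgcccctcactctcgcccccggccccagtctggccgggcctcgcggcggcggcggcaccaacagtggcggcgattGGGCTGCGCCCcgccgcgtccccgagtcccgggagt
The Pdcd1lg2 window held 1 match to the STAT6 form, TTCCTCAGAA, 82 to 73 bases before the start. That form occurred in 5.85% of 32851 promoter windows of the same length, the GAS letters in 7.02%, the interferon response core in 2.98% and the NF-kappaB letters in 45.8%. The NF-kappaB letters matched 1 time in Pdcd1lg2, 2 times each in Cd80 and Icosl and 9 times, some overlapping each other, in Cd276, whose window is 77.6% G and C against a median of 52.4%. No match to the 4 patterns was in the Cd274 or Vtcn1 window. Promoters were found for 6 of the 7 genes, and a match to letters is no evidence of binding.

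Pdcd1lg2 was higher in LN cells. It read 9.31, 8.96, 10.04 and 9.91 in LN, and 7.88, 7.30, 8.01 and 8.42 in spleen. Every LN array lay above every spleen array, and in both groups the second BeadChip read higher than the first. The log2 fold was 1.66 ± 0.31 (SE, n = 4 each, adjusted p 0.00442 in limma), a level 3.15-fold higher in LN, with a 95% interval of 0.97 to 2.34. It was 1.55 within the first BeadChip, 1.76 within the second and 1.83 without spleen replicate 4.

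Cd274 differed little between the groups. It read 13.76, 13.84, 14.07 and 14.14 in LN, and 14.36, 14.23, 14.14 and 14.08 in spleen. The LN arrays lay below the spleen arrays on the first BeadChip, and the groups overlapped on the second. The log2 fold was -0.25 ± 0.14 (SE, n = 4 each, adjusted p 0.293 in limma), with a 95% interval of -0.56 to 0.06. In linear terms the interval reached from 0.679 to 1.04 times the spleen level. It was -0.49 (adjusted p 0.0145 in limma) within the first BeadChip and -0.0042 within the second. The highest Cd274 intensity was 26130 on an array whose highest intensity was 63006.

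**Figure D3:**
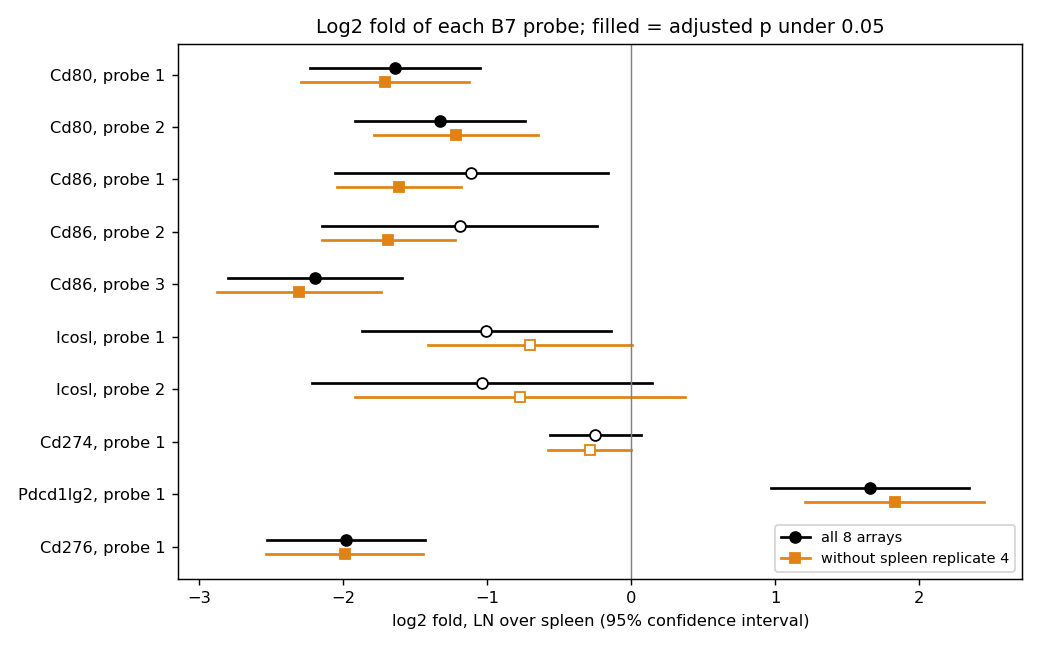
Log2 fold of LN over spleen (x axis) with its 95% confidence interval for each of the 10 passing B7 probes, with all arrays (black circles) and without spleen replicate 4 (orange squares), filled where the adjusted p was under 0.05. The intervals of Cd86 probes 1 and 2 narrowed and both became called without that array, while Pdcd1lg2 stood alone on the right.

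Cd276 was lower in LN cells. It read 6.58, 6.04, 5.94 and 5.95 in LN, and 7.98, 7.84, 8.54 and 8.08 in spleen. The groups did not overlap. The log2 fold was -1.98 ± 0.24 (SE, n = 4 each, adjusted p 0.000357 in limma), a level 3.95-fold lower in LN, with a 95% interval of -2.51 to -1.45. It was -1.60 within the first BeadChip, -2.36 within the second and -1.99 without spleen replicate 4. On the deposited scale its intensity was 104 to 180 in LN and 207 to 366 in spleen, not far above background. Its log2 fold was -1.38 in the authors' deposited processed values (adjusted p 0.000382 in limma).

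Vtcn1 had intensities of 58.8 to 92.6 in LN and 60.9 to 85.0 in spleen. Its detection p ran from 0.119 to 0.738, so it was detected on 0 of 8 arrays and was not tested. Its level lay below what this probe can detect, which does not show that it is absent.

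Whether genes that share receptors moved apart was tested on the difference of their log2 intensities within each array, in 2 pairs. The level of such a difference depends on the probes and only its change between groups has a meaning. Pdcd1lg2 minus Cd274 was -4.45, -4.87, -4.03 and -4.23 in LN, and -6.49, -6.93, -6.13 and -5.66 in spleen. The groups did not overlap, and the change of Pdcd1lg2 exceeded that of Cd274 by 1.90 ± 0.32 (SE, n = 4 each, 95% interval 1.11 to 2.70). By an exact two-sided permutation test over 70 arrangements p was 0.0286, the lowest that this design can reach, and 0.0571 after adjustment over the 2 pairs, which misses 0.05. From that lowest value the adjusted p could be under 0.05 only if the p of both pairs was. Cd80 minus Cd86 was -1.76, -1.76, -2.43 and -1.45 in LN, and -1.92, -1.89, -1.44 and -0.02 in spleen. These groups overlapped. The change of Cd80 differed from that of Cd86 by -0.53 ± 0.49 (SE, n = 4 each, 95% interval -1.74 to 0.67, exact permutation p = 0.429, adjusted p = 0.429), and by -0.10 without spleen replicate 4. The interval is wide, so this does not show that both genes changed alike.

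**Figure D4:**
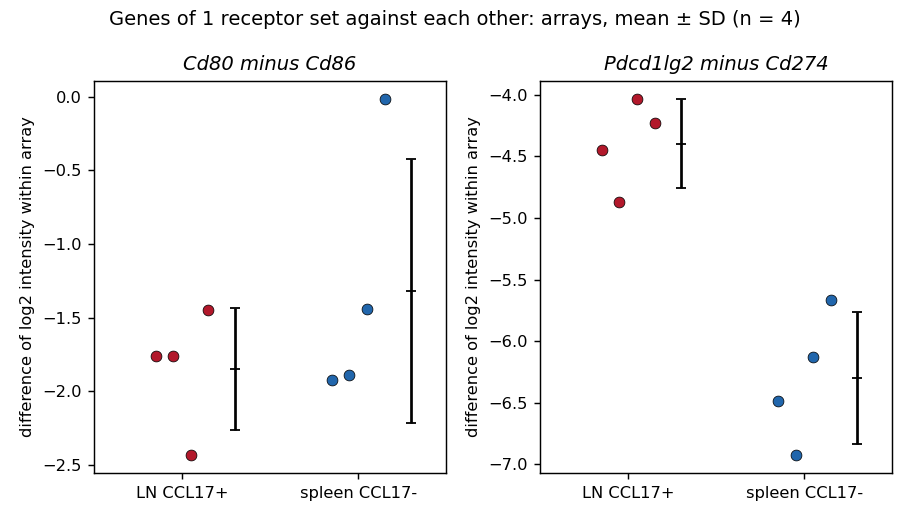
Within-array difference of log2 intensity (y axis) between the genes of each pair, with 1 point per array and mean ± SD (n = 4) for LN and spleen cells. Pdcd1lg2 minus Cd274 lay above -5 on all LN arrays and below it on all spleen arrays, while Cd80 minus Cd86 overlapped, with 1 spleen array at -0.02.

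Across the 8 arrays, which share the split by group, Cd80 and Cd276 had a Pearson r of 0.92 and Cd80 and Cd86 of 0.72. Pdcd1lg2 ran opposite to Cd80 (r = -0.91), Cd276 (r = -0.86) and Cd86 (r = -0.80). After each group's mean was taken off, r was 0.36 for Cd80 and Cd276, 0.42 for Cd80 and Cd86, and -0.53 for Pdcd1lg2 and Cd80. It was 0.65 for Icosl and Cd276 and -0.76 for Icosl and Cd274. These are descriptions over 8 arrays on 2 BeadChips.

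The 3 genes with the highest r over the 8 arrays were also listed for each B7 gene. They were picked from all genes tested, and r includes the split by group. A high r can therefore come from that split alone, and B7 genes that differed little between groups can have looser partners. These are descriptions without a test. For Cd80 they were the immediate early gene Egr1 (r = 0.986), the inhibitory receptor gene Btla (r = 0.975) and Tm6sf1 (r = 0.970). Cd86 was followed most closely by Stk17b (r = 0.995), Gm5431 (r = 0.990) and the interferon-induced Trim30a (r = 0.988). Those of Cd276 were Rilpl2 (r = 0.993), the histone variant gene Macroh2a1 (r = 0.988) and Cxcl10, the interferon-induced ligand of CXCR3 (r = 0.986). Pdcd1lg2 was closest to the anion exchanger gene Slc26a6 (r = 0.990), Pgap6 (r = 0.986) and the scavenger receptor gene Stab1 (r = 0.983). The closest were looser for Cd274, with Xkr8 (r = 0.958), Rabl2 (r = 0.927) and Pank2 (r = 0.902), and for Icosl, with Ggt5 (r = 0.944), Tyw1 (r = 0.930) and Tmem63b (r = 0.927).

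The list of receptors held 6 genes, of which 2 could be tested. Cd28, Pdcd1 and Treml2 were detected on 0 of 8 arrays. Rgmb, a partner of PD-L2, was detected on 3 LN and 0 spleen arrays and was not tested. Icos was detected on all arrays and was lower in LN, with a log2 fold of -1.43 ± 0.24 (SE, n = 4 each, adjusted p 0.0022 in limma), and was not called within the second BeadChip (adjusted p 0.119 in limma). Ctla4, detected on 3 LN and 1 spleen arrays, had 0.42 ± 0.34 (adjusted p 0.493). Of the 12 B7-like and butyrophilin genes listed 9 were on the array and only Vsir, which encodes the inhibitory ligand VISTA, could be tested. Its log2 fold was -0.57 ± 0.35 (SE, n = 4 each) and was not called (adjusted p 0.354 in limma), but it was called without spleen replicate 4 (-0.88, adjusted p 0.0352).

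Genes that handle B7 proteins at the cell surface went both ways, with 1 higher and 1 lower of 4 tested and a median of 0.34. The shares over all genes tested were 7.99% higher and 7.59% lower, with a median of 0.03. Cmtm6, whose product keeps PD-L1 at the surface, was higher in LN (log2 fold 1.05 ± 0.20, adjusted p 0.00452 in limma). It was not called within the second BeadChip (adjusted p 0.118 in limma). Marchf1, a ubiquitin ligase that removes CD86 and MHC class II from the surface, was lower (-1.56 ± 0.41, adjusted p 0.0269). That call was lost without LN replicates 1 or 4 or spleen replicate 3 (adjusted p 0.0719 to 0.0887). Cmtm4, a relative of Cmtm6, had 0.50 ± 0.30 (adjusted p 0.337), and 0.22 without spleen replicate 4. The other tested member, Cd83, had 0.18.

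Of 9 tested genes of the interferon path, 2 were lower in LN and 1 was higher, with a median of -0.35. Over all genes tested 7.59% were lower and 7.99% higher, with a median of 0.03. Ifngr1, the ligand-binding chain of the interferon gamma receptor, was lower (log2 fold -1.63 ± 0.20, adjusted p 0.000389 in limma). Stat2, which relays type I interferon, was also lower (-1.54 ± 0.18, adjusted p 0.000277) and the kinase gene Tyk2 higher (0.68 ± 0.15, adjusted p 0.011). Within the second BeadChip Stat2 (adjusted p 0.0554) and Tyk2 (adjusted p 0.243) were not called, and Tyk2 was not called with median scaling (adjusted p 0.115) or with the mean of its probes (adjusted p 0.183). The other 6 ranged from -0.59 to 0.43. Without spleen replicate 4, Ifnar2 (-0.82, adjusted p 0.0376 in limma) and Irf9 (-0.65, adjusted p 0.0332) were also called lower, where 11.9% of all genes were. Both are named after their values were seen.

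Of 9 tested genes of the IL-4, GM-CSF and STAT path, 0 passed in limma, where 3 had an unadjusted p under 0.05. These were Csf2rb, the shared beta chain of the GM-CSF receptor (log2 fold 1.81 ± 0.57, adjusted p 0.0591), its relative Csf2rb2 (0.97 ± 0.31, adjusted p 0.0612) and Il13ra1 (0.65 ± 0.20, adjusted p 0.0555). With replicate number as a block all 3 were called higher (adjusted p 0.00841, 0.0273 and 0.0358), where 11.2% of all genes were. Without spleen replicate 4, Csf2rb (2.34), Il13ra1 (0.54) and Csf2ra (0.66, adjusted p 0.0484 in limma) were called higher, where 12.2% of all genes were. Csf2rb2 was not called there (adjusted p 0.0505 in limma). Csf2ra is named after its values were seen. The other 6 ranged from -0.33 to 0.39.

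Of 10 tested genes of the LPS, CD40 and NF-kappaB path 1 was called lower, beside 7.59% of all genes tested. This was Ticam2, an adaptor of TLR4 (log2 fold -1.21 ± 0.21, adjusted p 0.00299 in limma). That call was lost with median scaling (adjusted p 0.0816) and within the second BeadChip (adjusted p 0.104). Ly96, the partner of TLR4, had 0.59 ± 0.37 (adjusted p 0.353), and 0.17 without spleen replicate 4, which read 7.89 against 9.53 to 9.65 on the other spleen arrays. The adaptor Myd88 had -0.53 ± 0.17 (adjusted p 0.0622), which was called with the replicate block (adjusted p 0.0396) and without spleen replicate 4 (adjusted p 0.00849). The other 7, which include the NF-kappaB subunits measured, ranged from -0.29 to 0.17.

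**Figure D5:**
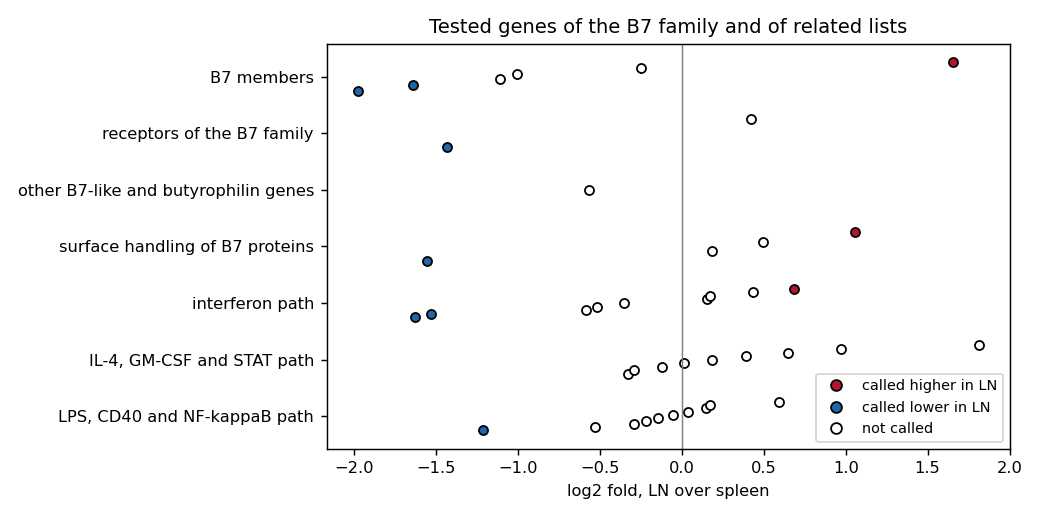
Log2 fold of LN over spleen (x axis) of the tested B7 genes and of the tested genes of each related list (rows), 1 point per gene, coloured where called. Cd276, Cd80 and Pdcd1lg2 stood at the ends of the B7 row, and most genes of the LPS, CD40 and NF-kappaB path lay near 0.

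Markers of other cells that can carry B7 proteins were measured as summed normalized intensity per array. The 10 macrophage markers summed to 1709 to 2127 in LN and 4002 to 5259 in spleen. Cd5l and Siglec1 were detected on 0 arrays, 5 markers were tested and 1, Spic, was called lower (log2 fold -2.73), while the other 4 ranged from -0.19 to 1.04. Spic averaged 9.09 in LN and 11.82 in spleen, and the higher sums in spleen rested on this gene. Of the other tested macrophage markers Adgre1 had a log2 fold of -0.19, C1qb of 0.68, C1qc of 1.04 and Vcam1 of 0.83. None of them was called, so the sums do not show more macrophage signal in spleen beyond Spic. C1qa and Marco were each detected on 3 LN and 0 spleen arrays and were not tested. The 5 B cell markers summed to 301 to 509 in LN and 513 to 684 in spleen, with Ms4a1 and Pax5 detected on 0 arrays and 0 of 2 tested called in limma, where 1, Blk, had an unadjusted p under 0.05. The 6 T cell markers summed to 438 to 558 in LN and 158 to 222 in spleen. Of these Thy1 alone could be tested and was called higher (log2 fold 2.67). It was detected on 4 LN and 1 spleen arrays, so it passed the filter mainly through LN and its fold is limited by background in spleen. Cd3d was detected on 3 LN and 0 spleen arrays and was not tested, and Cd3g and Cd5 were detected on 0 arrays. The 6 markers of plasmacytoid dendritic cells had overlapping sums of 2612 to 3854 in LN and 3237 to 5237 in spleen. Of these 2 of 4 tested, Pacsin1 (-1.40) and Bst2 (-0.79), were called lower, beside 7.59% of all genes tested. Sums of the 5 markers of cDC1, the CD8alpha and CD103 type of dendritic cell, overlapped too, at 5504 to 7506 in LN and 2853 to 7986 in spleen. Xcr1 and Cd8a were detected on 0 arrays, and 1 of 3 tested, Itgae (CD103), was called higher (log2 fold 4.56). The other tested cDC1 markers, Clec9a (-0.43) and Batf3 (-0.11), were not called and had folds below 0. Neutrophil markers, 5 in number, summed to 130 to 142 in LN and 165 to 401 in spleen, with Mpo, Elane and Retnlg detected on 0 arrays and 0 that passed the filter for testing. The part of the macrophage, B cell, T cell, plasmacytoid, Itgae and neutrophil signals in the lower Cd80 and Cd276 and the higher Pdcd1lg2 was not tested. Stromal and endothelial markers summed to 246 to 320 in LN and 251 to 377 in spleen, and 7 of 8 were detected on 0 arrays. Sums of NK cell markers (1887 to 3999 in LN and 2299 to 4352 in spleen) and of monocyte markers (226 to 301 in LN and 206 to 488 in spleen) overlapped. Of the 3 tested in each list only Klra3, an NK cell receptor gene, was called, lower in LN (log2 fold -1.86). It was detected on 0 LN and 4 spleen arrays, so it passed the filter through spleen alone. With its LN values raised to the lowest detected level it was 2.48-fold lower in LN. The 5 erythroid markers summed to 148 to 341 in LN and 4907 to 39308 in spleen. All 4 tested were called lower, beside 7.59% of all genes tested. Of these Alas2 was detected on 0 LN and 4 spleen arrays, so it too passed the filter through spleen alone. With its LN values raised to the lowest detected level Alas2 was 2.48-fold lower in LN. The part of the erythroid and Klra3 signals in these B7 differences was not tested either.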

How the data were processed

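The deposited table holds, per the file headers, non-normalized bead intensities and a detection p-value for each of 45281 probes on 8 Illumina arrays. A second deposited table from the authors holds log2 values, judged by their range, and every array has the same median there (6.28). Per the submitters' processing notes Partek was used, with no role stated, and the background step is not given in the sources used here. A platform table named 34885 probes with 1 symbol, 18 with several, and 10378 were not listed. No 2 arrays held identical values, since even the most alike pair had a correlation of 0.989. Arrays that share RNA can also differ this much, so whether any did was not tested.

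Intensities were corrected with neqc in limma 3.58.1 (R 4.3.3), with negative controls inferred from the detection p and an offset of 16. Of 12589 named passing probes the brightest stood for each gene. A 2-group limma model with an intensity trend followed. The test was tried on simulated data with independent normal noise. These held no BeadChip effect and no array of lower quality, so the trial does not cover such departures. The 4 same-numbered pairs had correlations of 0.27 to 0.57 in their deviations from the group means, each over 0.1. By that rule results with replicate number as a block are also given. The main fit and the exact permutation tests did not pair the arrays. The evidence for pairing by number is mixed, since only 1 of 4 LN arrays correlated best with its own number. Other-numbered arrays of the same BeadChip had a mean correlation of 0.31. The text names every B7 gene, called list members or up to 3 of largest fold per list, and the 3 genes of highest r per B7 gene. Exceptions are single markers, Cd83 and detection counts, named after their values were seen. Members and lists were chosen with earlier results of these data known. Alternatives changed the background, scaling, offset, filter, probe choice, trend and blocks, or left out an array. Protein sequences were not used here. The number of arrays limits the precision. Figures used Python 3.11.15, pandas 2.3.3 and matplotlib 3.10.9.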

Additional observations from a re-analysis of the deposited data

Results flagged for a closer look

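LN replicate 1 lay apart from the other LN arrays for Cd276, at 6.58 against 5.94 to 6.04, and its gap took 0.841 of the group's range, above Dixon's 95% critical value for 4 samples. This was 1 of 24 groups checked, and chance flags about 1 in 20. Without that array the log2 fold of Cd276 was -2.13 (adjusted p 0.000835 in limma).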

How the results depend on the processing

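Pdcd1lg2 (1.44 to 1.89), Cd80 (-1.96 to -1.32) and Cd276 (-2.36 to -1.38) kept direction and call under all 22 alternatives (adjusted p up to 0.0434, 0.0379 and 0.0193 in limma). With median scaling their folds relative to the median of all genes were 1.65, -1.67 and -1.97. Icosl ran from -1.88 to -0.14 and was never called. Cd86 was called with replicate number as a block (-1.11), with BeadChip as a block (-1.11), within the first BeadChip (-1.47), with the mean of its probes (-1.50) and with array weights (-1.68), an alternative added after seeing the data, and leaving out 1 array gave -1.61 to -0.83. Cd274 was called lower within the first BeadChip (-0.49) and with array weights (-0.34). In both, 4 B7 genes were lower in place of 2. Over all 8252 genes those called lower also rose, from 626 to 929 within the first BeadChip and to 1329 with array weights. The change of Cd80 minus that of Cd86 was 0.0123 with the mean of probes, which includes the dim Cd86 probe, and 0.15 within the first BeadChip, against -0.53 with the brightest probes. The genes called higher and lower numbered 1369 and 1329 with array weights and 178 and 183 within the second BeadChip, where 4 arrays remained. Leaving out 1 array gave 454 to 1003 higher and 421 to 985 lower, and median scaling 315 lower. The replicate block changed no other B7 call. The cause of these shifts was not tested. The pair differences had no test under blocks, single BeadChips or with an array left out. Vtcn1 and dim probes such as that of Cd276 are limited by signal over background.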
